A study of Homo sapiens with 8 samples.

Results

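The comparison described here is that of SCC13 cells carrying a short hairpin RNA against RING1B (shRING1B) with SCC13 cells carrying a control hairpin against GFP (shGFP). It takes 2 arrays per hairpin, 4 of the 8 arrays of the series, and its members are all 14884 genes that the array annotation names, each by 1 probe set. SCC13 is an established line from a human skin squamous cell carcinoma. GFP is a jellyfish protein that human cells do not make, so shGFP controls for carrying a hairpin. The remaining 4 arrays are 2 with a hairpin against EZH2 (shEZH2) and 2 with a hairpin against BMI1 (shBMI1). They enter the fit that gives every standard error and p-value, the choice of probe set and the mean level of each gene. Their responses are described only where that to shRING1B is set beside them. The sources used here do not give the hairpin sequences, how they were delivered and for how long, or whether cells were cloned or pooled. Separate cultures for the 2 arrays of a group are not stated either. The p-values therefore measure the spread between such arrays, and this may be technical.

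RING1B, the product of RNF2, is the catalytic core of Polycomb repressive complex 1 and adds ubiquitin to histone H2A at genes that are kept silent. It pairs with a PCGF protein such as BMI1, and in the canonical complex a CBX subunit binds the histone H3 mark written by EZH2, the methyltransferase of Polycomb repressive complex 2. In skin, Polycomb proteins are known for holding back developmental regulators and late differentiation genes in basal keratinocytes. The title of the series asks about repression of inflammatory functions by RING1B and EZH2 in this tumour type.

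Values are log2 levels after robust multi-array averaging (RMA), so a difference of 1 is a 2-fold change. Medians of the 8 arrays ran from 5.49 to 5.52. The annotation pairs 0 probe sets with RNF2 and 0 with BMI1, so the depletion of RING1B itself was not checked here. EZH2 was at 9.83 and 9.97 with shGFP and at 9.62 and 9.86 with shRING1B, and these ranges overlap (-0.16 ± 0.12, SE, adjusted p = 0.789). Of 16 squamous keratinocyte markers 7 were measured, and their mean level was 9.22 and 9.20 with shGFP and 8.91 and 9.02 with shRING1B. All 7 had a negative difference, and all 7 kept it without the second shGFP array. Without the first shRING1B or the first shGFP array 5 were negative. Without the second shRING1B array, or with quantile normalization, 6 were. DSG3, KRT14 and KRT5 were lower at an unadjusted p under 0.05 in limma's test (42.9%, beside 3.8% of all genes), and 0 were higher. The defining keratins KRT5 and KRT14 lay between 9.04 and 10.60 on these arrays. For shEZH2 the sample titles start with another prefix than those of the other arrays, although the cell line label is the same.

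No gene passed an adjusted p of 0.05 in limma's test (0 of 14884, 0.0%). The lowest adjusted p was 0.0598. It was 0.355 in a fit of only the 4 arrays compared and 0.165 without the shEZH2 arrays. At an unadjusted p under 0.05, 1280 genes (8.6%) stood out. Of these, 715 were higher with shRING1B (4.8% of genes tested) and 565 were lower (3.8%). Changes were small, with a 5th percentile of -0.25 and a 95th percentile of 0.29 on the log2 scale. Differences of 1 or more were seen for 6 higher genes (0.0403%) and 3 lower ones (0.0202%). A difference of at least 0.5 was seen for 130 higher genes (0.873%) and 65 lower ones (0.437%). Its sign was positive for 49.2% of genes and negative for 50.8%. Both shRING1B arrays lay above both shGFP arrays for 2704 genes (18.2%) and below both for 2846 (19.1%). All counts of list members below are read against these shares, and no list was tested as a set. Of 18 lists with 3 or more members past the unadjusted threshold in a direction, 15 had a count that moved by over 1.5 times when 1 array was left out. Of 33 lists with at most 2, the count changed in 29. Adjusted calls appeared under other settings: 9 when only protein-coding genes were tested, 11 without the dimmest genes and 36 with a variance that follows the level.

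**Figure D1:**
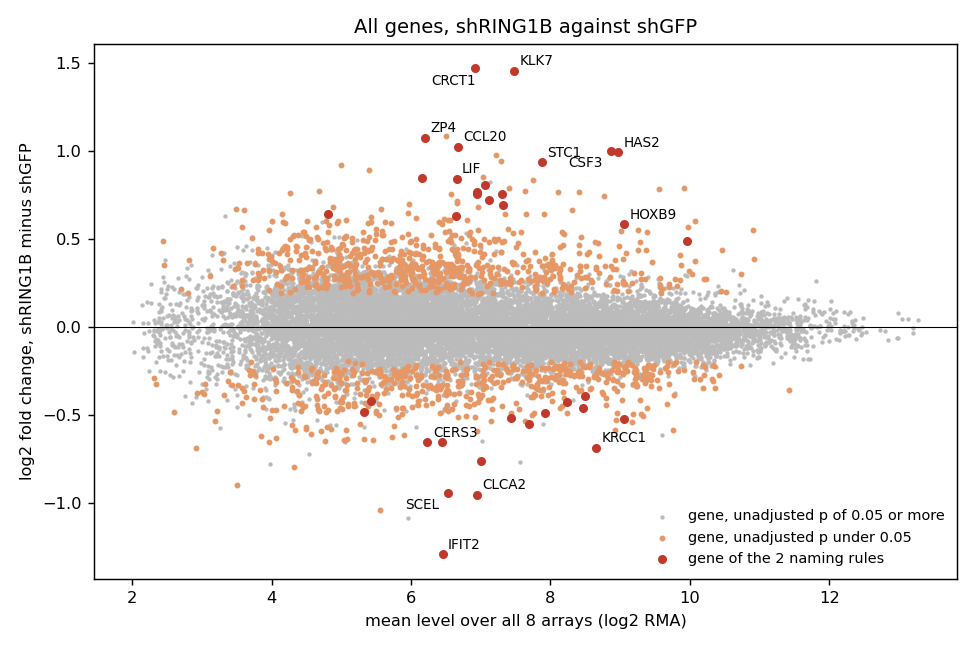
The log2 fold change of shRING1B over shGFP (vertical axis) of each of the 14884 genes against its mean log2 level over all 8 arrays (horizontal axis), with genes at an unadjusted p under 0.05 in orange and the genes named by the rules for small p and large change in red. A reader should see that CRCT1 and KLK7 stand highest at 1.47 and 1.46, that IFIT2 stands lowest of the red points at -1.29, and that most genes lie close to 0.

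Several of the smallest p-values belonged to secreted and cell-surface proteins that were higher with shRING1B. Genes named by rule were picked from those whose groups did not overlap, so their separation is no finding. Over all genes, 18.2% were separate in the higher and 19.1% in the lower direction. STC1 encodes stanniocalcin 1, a secreted glycoprotein hormone. It was at 7.38 and 7.43 on the shGFP arrays and at 8.43 and 8.26 on the shRING1B arrays, a difference of 0.94 ± 0.10 (SE, 1.91-fold, adjusted p = 0.0598). Both shRING1B arrays stood well above both controls. LIF, a cytokine of the interleukin 6 family, was at 6.31 and 6.28 with shGFP and at 7.22 and 7.06 with shRING1B. The difference of 0.84 ± 0.09 (1.79-fold, adjusted p = 0.0598) was many times the gap between arrays of a group. HEPHL1 encodes a copper-containing ferroxidase. Its levels were 5.71 and 5.59 with shGFP and 6.53 and 6.46 with shRING1B (0.84 ± 0.09, 1.80-fold, adjusted p = 0.0628). The hyaluronan synthase HAS2 was at 8.12 and 8.37 with shGFP and at 9.15 and 9.33 with shRING1B (0.99 ± 0.14, 1.99-fold, adjusted p = 0.102). The lower shRING1B array exceeded the higher control by more than either pair differed within itself.

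Further ligands and enzymes were among the 15 higher genes with the smallest p. DLL4, a ligand of Notch receptors, was at 6.66 and 6.70 with shGFP and at 7.63 and 7.35 with shRING1B (0.81 ± 0.11, 1.75-fold, adjusted p = 0.0895). The shRING1B arrays differed more between themselves than the controls did. BMP2, a bone morphogenetic protein, was at 6.60 and 6.49 with shGFP and at 7.42 and 7.19 with shRING1B (0.76 ± 0.10, 1.69-fold, adjusted p = 0.0895). Its groups were separate, which the naming rule required. GSTM3, a glutathione transferase, was at 6.71 and 6.52 and at 7.42 and 7.34 in the same order. CACHD1, a protein related to calcium channel subunits, was at 7.01 and 6.89 with shGFP and at 7.61 and 7.69 with shRING1B. LURAP1L, related to the adaptor protein LURAP1, had 6.75 on both shGFP arrays and 7.41 and 7.60 with shRING1B. For these 3 genes the differences were 0.77 for GSTM3, 0.70 for CACHD1 and 0.76 for LURAP1L, with adjusted p-values of 0.0895, 0.0844 and 0.0844. The homeobox factor HOXB9, the actin-bundling protein LCP1, the centromere protein CENPV, the annexin ANXA10, the O-mannosyltransferase TMTC2 and the egg coat glycoprotein ZP4 completed the 15 with the smallest p. Their differences lay between 0.49 for CENPV and 1.08 for ZP4, all at an adjusted p of 0.167.

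**Figure D2:**
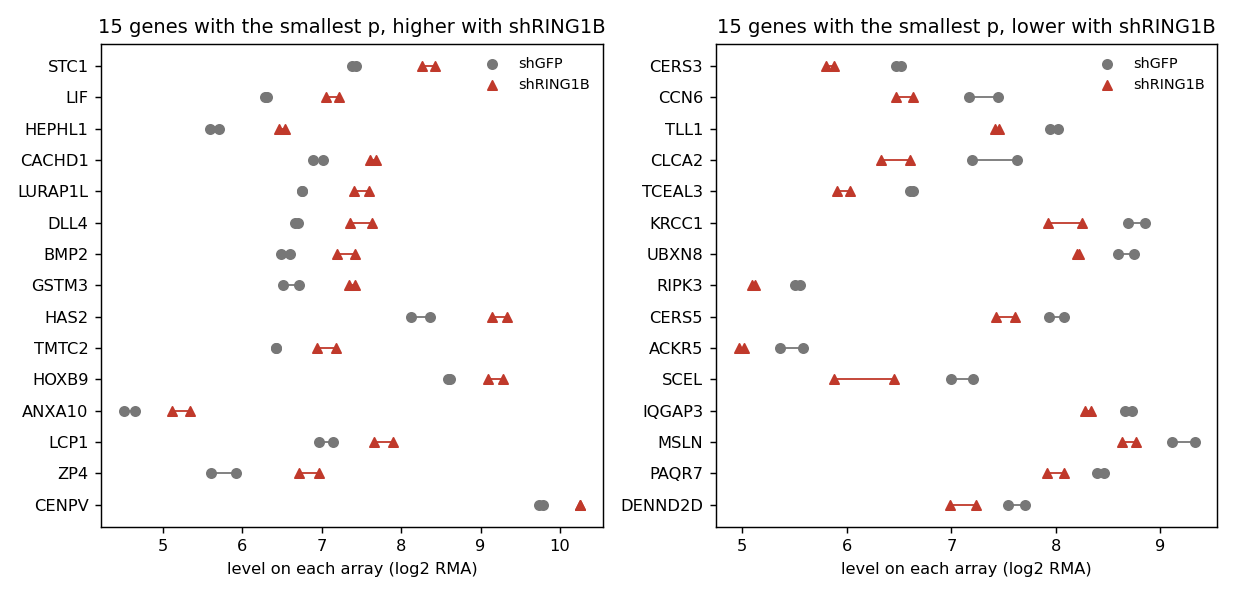
Log2 level on each shGFP array (grey circles) and shRING1B array (red triangles), with a line joining the 2 arrays of a hairpin, for the 15 genes with the smallest p that were higher (left) and lower (right) with shRING1B and whose groups did not overlap. A reader should see that pairs were narrow for STC1, LIF and CERS3 and wide for SCEL, whose shRING1B arrays lay at 5.87 and 6.45.

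The largest differences were not the most certain. CRCT1, a small protein of the epidermal differentiation region, was at 6.74 and 7.41 with shGFP and at 7.85 and 9.25 with shRING1B (1.47 ± 0.61, 2.77-fold, adjusted p = 0.555). The shRING1B arrays were far apart, and leaving out 1 array at a time moved the difference between 0.77 and 2.17. KLK7, a skin protease that cleaves desmosome proteins as cells are shed, was at 7.15 and 7.33 with shGFP and at 8.23 and 9.17 with shRING1B (1.46 ± 0.36, 2.75-fold, adjusted p = 0.346). Both of its shRING1B arrays lay above the controls, the second by much more than the first. CSF3, the granulocyte colony stimulating factor, was at 8.16 and 8.30 with shGFP and at 9.43 and 9.03 with shRING1B (1.00 ± 0.27, adjusted p = 0.381). CCL20, a chemokine that draws cells bearing CCR6, was at 6.07 and 5.81 with shGFP and at 7.31 and 6.62 with shRING1B (1.03 ± 0.24, 2.04-fold, adjusted p = 0.346). For both signals the shRING1B arrays were higher and more spread than the controls.

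Among genes that were lower with shRING1B, CERS3 had the smallest p of those named by rule. It encodes the ceramide synthase that makes the very long ceramides of the skin barrier. CERS3 was at 6.47 and 6.51 with shGFP and at 5.80 and 5.88 with shRING1B (-0.65 ± 0.09, 1.57-fold lower, adjusted p = 0.102). Both pairs were tight and well apart. A second ceramide synthase, CERS5, was at 7.94 and 8.08 with shGFP and at 7.43 and 7.61 with shRING1B (-0.49 ± 0.10, adjusted p = 0.259). CLCA2, an epithelial surface protein of keratinocytes, was at 7.63 and 7.20 with shGFP and at 6.61 and 6.33 with shRING1B (-0.95 ± 0.17, 1.93-fold lower, adjusted p = 0.207). SCEL, sciellin, a precursor of the cornified envelope, was at 6.99 and 7.21 with shGFP and at 5.87 and 6.45 with shRING1B (-0.94 ± 0.19, 1.92-fold lower, adjusted p = 0.273). In each of these the lower control exceeded the higher shRING1B array, which the naming rule required.

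The other genes in this direction had varied roles. CCN6, a matricellular protein, was at 7.17 and 7.45 with shGFP and at 6.63 and 6.47 with shRING1B (-0.76 ± 0.12, adjusted p = 0.167). RIPK3, the kinase that starts necroptosis, was at 5.55 and 5.50 with shGFP and at 5.12 and 5.09 with shRING1B (-0.42 ± 0.08, adjusted p = 0.234). The within-group gaps of RIPK3 were small beside this difference. KRCC1 was at 8.86 and 8.69 with shGFP and at 7.93 and 8.25 with shRING1B (-0.68 ± 0.13, adjusted p = 0.223). The protease TLL1, which processes procollagen, the transcription elongation factor-like TCEAL3, the membrane protein UBXN8, the chemokine-binding ACKR5, the scaffold IQGAP3, the surface protein MSLN, the progestin receptor PAQR7 and DENND2D, an activator of RAB proteins, lay between -0.65 for TCEAL3 and -0.39 for IQGAP3. Their adjusted p-values ran from 0.198 for TLL1 to 0.288 for DENND2D. IFIT2, an interferon-induced RNA-binding protein, had the largest size of the lower genes named by rule, with the arrays of each hairpin far apart. It was at 6.62 and 7.49 with shGFP and at 5.26 and 6.28 with shRING1B (-1.29 ± 0.40, 2.44-fold lower, adjusted p = 0.41).

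In 7 of 9 lists of secreted signals, more members were higher than lower at an unadjusted p under 0.05. Over all genes 4.8% were higher and 3.8% lower. The CC chemokine list entered this tally through 1 gene of 18 (5.56%), and the CXC list through 2 of 15 (13.3%). Of 8 measured members of the interleukin 6 type cytokines and colony stimulating factors, 3 were higher at an unadjusted p under 0.05 (LIF, CSF3 and IL11) and 0 were lower, with a list median of 0.26 beside -0.00 over all genes. IL11 was at 7.60 and 7.63 with shGFP and at 8.01 and 7.75 with shRING1B. EBI3, a subunit of interleukin 27 and 35, was at 6.59 and 6.41 with shGFP and at 7.02 and 6.71 with shRING1B, with a difference of 0.37 ± 0.17. In neither did the groups overlap. Without the first shRING1B array 1 member of this list was higher and the median was 0.11, and without the second 5 were higher and it was 0.40. Of 11 other cytokines, 6 were higher and 0 lower, with a median of 0.25. That count was 3 without either shRING1B array and 2 without the second shGFP array. IL32 was at 7.07 and 7.21 with shGFP and at 7.62 and 7.57 with shRING1B (0.45 ± 0.10, adjusted p = 0.318). Differences for IL20, a keratinocyte-active cytokine, IL15, which sustains lymphocytes, and TSLP, an alarm signal of epithelia, were 0.42, 0.37 and 0.25. Of 5 interleukin 1 family members, the anti-inflammatory IL37 was higher by 0.46 ± 0.13 and IL18 was lower. IL18 was at 9.36 and 9.27 with shGFP and at 8.88 and 9.16 with shRING1B.

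The chemokines were counted by family. Of 15 CXC chemokines, 2 were higher at an unadjusted p under 0.05 and 0 lower, with a median of 0.08. CXCL8, the neutrophil attractant also named interleukin 8, was at 6.93 and 6.71 with shGFP and at 8.18 and 7.35 with shRING1B (0.95 ± 0.23, adjusted p = 0.346). CXCL3 was at 5.12 and 4.82 with shGFP and at 5.76 and 5.44 with shRING1B (0.63 ± 0.17, adjusted p = 0.384). Both attract cells through CXCR2, and in both the groups were apart while the arrays of each group differed visibly. Of 18 CC chemokines, CCL20 was higher at that threshold and 0 were lower, with a median of 0.07. CCL2, a monocyte attractant, was at 5.24 and 5.32 with shGFP and at 5.45 and 5.64 with shRING1B (0.26 ± 0.12). Without the first shRING1B array 1 CXC chemokine was higher, and without the second shGFP array 4 were.

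Growth factors had 7 of 19 higher and 0 lower, with a median of 0.09. Without either shRING1B array 3 growth factors were higher, and without the second shGFP array 2 were. STC2, the paralog of STC1, was at 8.98 and 8.51 with shGFP and at 9.39 and 9.20 with shRING1B (0.55 ± 0.17, adjusted p = 0.409). The angiogenic factor VEGFA was at 9.11 and 8.81 with shGFP and at 9.58 and 9.21 with shRING1B (0.44 ± 0.15, adjusted p = 0.44). The ranges did not meet in either gene. PDGFB, a mitogen of mesenchymal cells, was higher by 0.29 ± 0.09. Of 8 ligands of the EGF receptor, 3 were higher and 0 lower, with a median of 0.18, and 1 was higher without the first shGFP array. EREG was bright and was at 10.60 and 10.80 with shGFP and at 11.06 and 11.12 with shRING1B (0.39 ± 0.10, adjusted p = 0.363). HBEGF was higher by 0.35 ± 0.10 and BTC by 0.27 ± 0.11, without overlap. In the TGF-beta and BMP list of 13, 5 were higher and 2 lower, with a median of 0.10. With the first shRING1B array left out 3 were higher and the median was -0.03, and without the second shGFP array 3 were higher. BMP7 was at 6.47 and 6.30 with shGFP and at 6.89 and 6.85 with shRING1B (0.48 ± 0.09, adjusted p = 0.234). GREM1, which captures BMP proteins, was higher too, by 0.30 ± 0.09, while the pseudoreceptor BAMBI was lower (-0.26 ± 0.09). Of 9 WNT ligands and antagonists, 0 were higher and 0 lower at the threshold.

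Receptors and signalling genes were counted in the same way. Of 17 cytokine receptors and signal chain genes, only LIFR, the receptor of LIF, was higher at an unadjusted p under 0.05 and 0 were lower, with a median of 0.01. LIFR was at 6.70 and 6.64 with shGFP and at 6.96 and 7.32 with shRING1B (0.47 ± 0.12, adjusted p = 0.347), so the ligand and the receptor were each higher without overlap. The NF-kB list had 5 of 16 higher and 0 lower, with a median of 0.20, and 3 higher without the first shRING1B array. PTGS2, the inducible cyclooxygenase, was at 10.54 and 10.84 with shGFP and at 11.19 and 11.29 with shRING1B (0.55 ± 0.14, adjusted p = 0.346). CYLD, a deubiquitinase that restrains NF-kB, was at 9.33 and 9.28 with shGFP and at 9.65 and 9.70 with shRING1B (0.37 ± 0.08, adjusted p = 0.309). The adaptor kinase IRAK2 was higher by 0.47 ± 0.14 and the subunit NFKB2 by 0.33 ± 0.13. Of 10 complement and acute phase genes, 0 were higher or lower at the threshold, although 9 had a positive difference and the median was 0.13. Without the second shRING1B array 2 were higher. SAA1, an acute phase protein, was at 5.68 and 5.50 with shGFP and at 6.19 and 5.88 with shRING1B.

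Of 25 MAPK feedback and immediate early genes, 2 were higher and 2 lower. Without the first shRING1B array 0 were higher, without the second 6 were higher and 0 lower, and without the first shGFP array 0 passed in either direction. ATF3 and the phosphatase DUSP10 were higher by 0.28 and 0.24, while the early factors EGR1 and FOS were lower. EGR1 was at 10.30 and 10.34 with shGFP and at 10.15 and 9.91 with shRING1B (-0.29 ± 0.10, adjusted p = 0.468). FOS was at 7.11 and 7.14 with shGFP and at 6.91 and 6.93 with shRING1B, with tight pairs. Hippo pathway targets, read out by YAP and TAZ, had 3 of 8 higher and 0 lower, with a median of 0.01. The receptor kinase AXL was at 10.43 and 10.35 with shGFP and at 10.82 and 10.84 with shRING1B (0.44 ± 0.09, adjusted p = 0.288). The matricellular CCN2 was at 9.16 and 9.04 with shGFP and at 9.43 and 9.74 with shRING1B (0.48 ± 0.12, adjusted p = 0.346). ANKRD1 was higher by 0.98 ± 0.38, but its shRING1B arrays at 7.27 and 8.48 differed by more than that. In the Notch list of 19, the ligands DLL4 and JAG1 were higher and the coactivator MAML2 was lower at the threshold, with a median of -0.05. JAG1 was at 9.89 and 9.77 with shGFP and at 10.65 and 10.16 with shRING1B (0.57 ± 0.16, adjusted p = 0.384).

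Interferon response genes had a direction that changed with the array left out. Of 33 measured, 9 had a positive and 24 a negative difference, 2 were higher and as many lower past the unadjusted threshold, and the median was -0.12. The second shGFP array had a mean of 8.05 over these genes and the first 7.64, while the shRING1B arrays were at 7.51 and 7.81. Without the second shGFP array the median was 0.06 and 20 genes were positive. Without the first it was -0.25 and 11 genes were lower. Without the second shRING1B array 5 were lower, and without the first 0 were. IFITM1, which blocks virus entry, was among the higher genes, at 8.61 and 8.70 with shGFP and at 9.02 and 8.99 with shRING1B (0.35 ± 0.09, adjusted p = 0.347). ISG20, an exonuclease, was higher by 0.37 ± 0.13. IFIT2 and IFI35 (-0.20 ± 0.08) were the lower members. Of 6 antigen presentation genes, 5 had a negative difference and the median was -0.04.

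**Figure D3:**
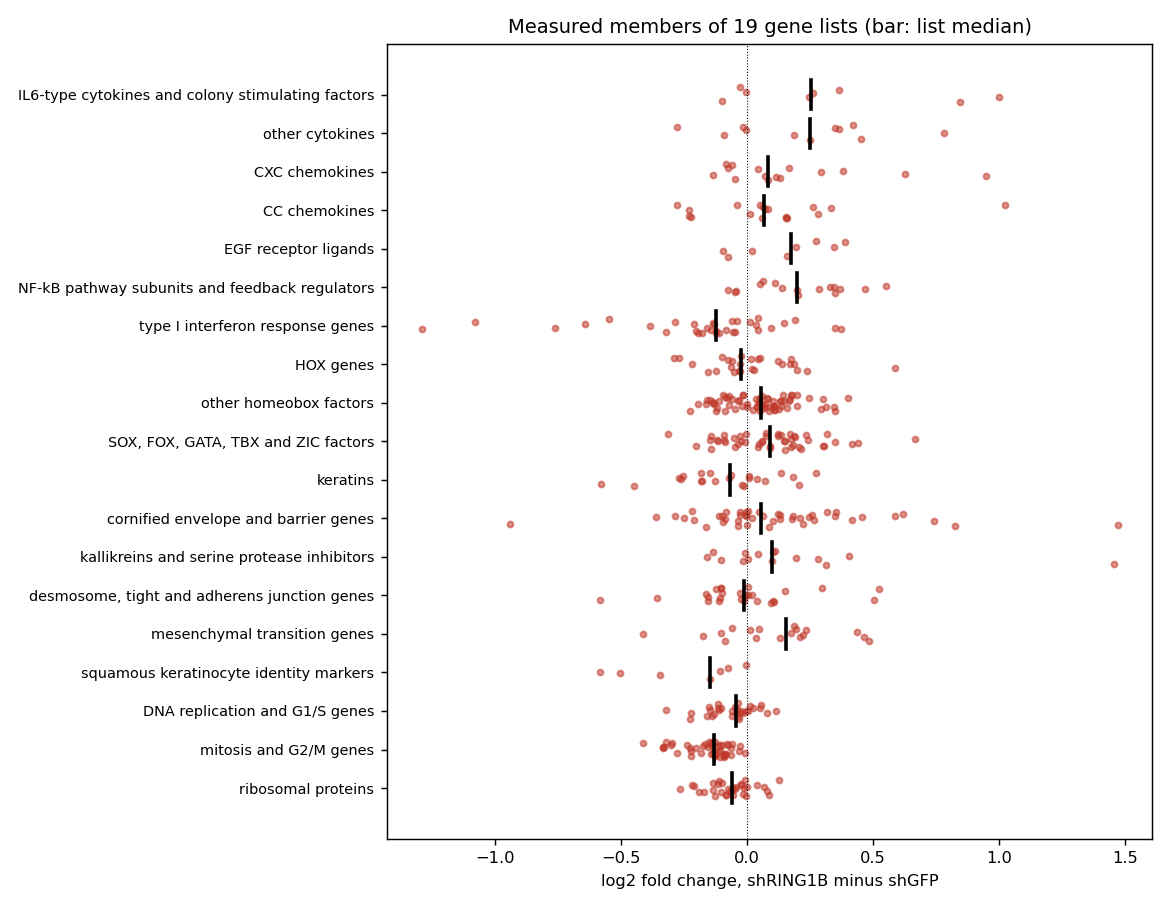
Log2 fold change of shRING1B over shGFP (horizontal axis) of each measured member (points, with vertical scatter for legibility) of 19 gene lists, with a black bar at the list median. A reader should see CSF3 at 1.00 and LIF at 0.84 at the right of the cytokine list, a long left tail in the interferon list down to IFIT2 at -1.29, and all 49 mitosis genes below 0.

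Genes of the Polycomb machinery itself were near the background. Of 31 measured subunits, 2 were higher and 0 lower past the unadjusted threshold, with a median of 0.01. CBX6, a chromodomain subunit of the canonical complex, was at 7.23 on both shGFP arrays and at 7.55 and 7.48 with shRING1B (0.28 ± 0.08, adjusted p = 0.394). SCML1, related to a subunit of the complex, was at 6.73 and 6.69 with shGFP and at 6.91 and 7.16 with shRING1B. In both the groups were apart. Of 13 enzymes that oppose Polycomb, the only one past the threshold was ASXL3, a partner of the H2A deubiquitinase BAP1, higher by 0.54 ± 0.17.

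Families of developmental regulators that are classic Polycomb targets were counted one family at a time. Of 27 HOX genes, HOXB9 alone was higher and 0 were lower at the threshold, with a median of -0.02. HOXB9 was at 8.59 and 8.62 with shGFP and at 9.29 and 9.09 with shRING1B (0.59 ± 0.09, 1.5-fold, adjusted p = 0.167). Of 71 other homeobox factors, 5 were higher and 0 lower, beside 4.8% of all genes, with a median of 0.06. Leaving out the first shRING1B array left 2 higher, and without the first or second shGFP array 3 or 1. They were MSX2, LHX1, TLX1 and EN1, with differences of 0.32, 0.35, 0.40 and 0.29, and ALX4 at 0.25, which was chosen after its value was seen. The list of SOX, FOX, GATA, TBX and ZIC factors had 9 of 48 higher and 1 lower, with a median of 0.09. The count was 3 higher and 2 lower without the first shRING1B array, and without the second shGFP array 4 were higher and 1 lower. GATA6, a regulator of endoderm and of sebaceous duct cells, was at 7.96 and 7.88 with shGFP and at 8.69 and 8.48 with shRING1B (0.67 ± 0.12, adjusted p = 0.187). TBX18 was at 5.05 and 4.94 with shGFP and at 5.46 and 5.42 with shRING1B (0.44 ± 0.09, adjusted p = 0.239). SOX7 was higher by 0.42 ± 0.11, and GATA4 was the lower one, at 7.78 and 7.81 with shGFP and at 7.48 on both shRING1B arrays. The 2 GATA factors thus stood on opposite sides with no overlap in either.

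Of 29 basic helix-loop-helix lineage factors, 4 were higher and 1 lower, with a median of 0.07. Without the first shRING1B array 1 was higher, and without the first or second shGFP array 0 or 2. Without the second shRING1B array 3 were lower. The lower one was TWIST1, a driver of mesenchymal transition, at 7.18 and 7.22 with shGFP and at 6.86 and 6.72 with shRING1B (-0.41 ± 0.09, adjusted p = 0.326). MSC, HAND1 and NEUROD4 were higher by 0.34, 0.27 and 0.26. Of 28 protocadherins, 0 were higher and PCDH7 was lower, at 9.15 and 9.13 with shGFP and at 8.72 and 8.76 with shRING1B (-0.40 ± 0.09, adjusted p = 0.318). Of 9 senescence genes and CDK inhibitors, 0 were higher and 0 lower, with a median of -0.04. 

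The epidermal lists held members on both sides. Of 7 basal and hemidesmosome genes, 2 were lower at the threshold and 0 higher, with 1 lower without the first shRING1B or the second shGFP array. KRT14, the basal keratin, was at 9.61 and 9.72 with shGFP and at 9.04 and 9.29 with shRING1B (-0.50 ± 0.13, adjusted p = 0.347). Its partner KRT5 was at 10.49 and 10.60 with shGFP and at 10.10 and 10.30 with shRING1B (-0.34 ± 0.12, adjusted p = 0.479). The 2 keratins were lower together, without overlap. In the keratin list of 22, 3 were lower and 0 higher, with a median of -0.07, and 1 was lower without the second shRING1B array. KRT10, the keratin of early differentiation, was at 7.11 and 7.32 with shGFP and at 6.66 and 6.87 with shRING1B (-0.45 ± 0.12, adjusted p = 0.366). KRT6C was lower by a similar size (-0.58 ± 0.20), but it has near-identical paralogs and its value is uncertain.

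Of 46 cornified envelope and barrier genes, 7 were higher and 3 lower, with a median of 0.06. Without the second shRING1B array this turned to 3 higher and 5 lower, and without the first shGFP array it was 3 and 1. Beside CRCT1, the higher members included LCE2A, at 6.45 and 6.42 with shGFP and at 7.01 and 6.69 with shRING1B, and SPRR2F, whose near-identical paralogs make it uncertain (0.62 ± 0.18). The lower ones included SCEL and HRNR, hornerin, at 4.51 and 4.39 with shGFP and at 4.17 and 4.01 with shRING1B. Of 15 barrier lipid genes, CERS3 alone passed the threshold and was lower, with a median of -0.01. Kallikreins and serine protease inhibitors had 4 of 15 higher and 0 lower, with a median of 0.10, and 2 higher without the second shRING1B or the second shGFP array. KLK5, which activates KLK7, was at 6.52 and 6.53 with shGFP and at 6.75 and 7.12 with shRING1B (0.41 ± 0.14, adjusted p = 0.474). KLK6 was higher by 0.32 ± 0.13, and the inhibitor-type protein WFDC5 by 0.28 ± 0.10. As with KLK7, the second shRING1B array was the higher one for KLK5, KLK6 and WFDC5. Of 18 S100 and antimicrobial genes, S100A8 was higher by 0.37 ± 0.12 and S100A10 was lower (-0.27 ± 0.10).

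Few junction genes stood out. Of 27 measured, 2 were higher and 2 lower, with a median of -0.01. The higher pair were tight junction proteins. OCLN, occludin, was at 6.33 and 6.43 with shGFP and at 6.99 and 6.81 with shRING1B (0.52 ± 0.10, adjusted p = 0.231), and CLDN1 was at 6.51 and 6.42 and at 6.81 and 7.13 in the same order (0.50 ± 0.17). The lower pair were desmosome proteins. The cadherin DSG3 was at 9.76 and 10.09 with shGFP and at 9.22 and 9.46 with shRING1B (-0.58 ± 0.13, adjusted p = 0.31). DSP, desmoplakin, which ties desmosomes to keratin filaments, was at 11.45 and 11.60 with shGFP and at 11.14 and 11.19 with shRING1B (-0.36 ± 0.09, adjusted p = 0.346). All 4 genes had separate groups.

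Of 18 mesenchymal transition genes, 3 were higher and 1 lower, with a median of 0.15. TNC, the matrix protein tenascin C, was at 8.81 and 8.80 with shGFP and at 9.27 on both shRING1B arrays (0.46 ± 0.08, adjusted p = 0.179). AXL and CCN2 were the other higher members and TWIST1 the lower one. Of 17 collagens, laminins and matrix proteins, 2 were higher and 0 lower, with a median of 0.12. Without the first shRING1B array 4 were higher, without the second 0, and without the first shGFP array 1. They were NID1, nidogen (0.53 ± 0.20), whose groups were 7.76 and 8.22 against 8.30 and 8.74, and BGN, biglycan (0.21 ± 0.09). Metalloproteinases and inhibitors had 4 of 25 higher and 0 lower, with a median of 0.04, and 2 higher without the first shRING1B array or either shGFP array. MMP13, collagenase 3, was at 4.36 and 4.43 with shGFP and at 5.07 and 4.74 with shRING1B (0.51 ± 0.13, adjusted p = 0.346). The other 3 were the shedding proteases ADAM19, ADAM8 and ADAM12, higher by 0.28, 0.38 and 0.32.

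Mitosis genes had small negative differences. All 49 measured mitosis and G2/M genes had a negative difference, with a median of -0.13, and 7 passed an unadjusted p under 0.05, against 3.8% of all genes lower. Their mean level was 10.01 and 9.999 with shGFP and 9.78 and 9.92 with shRING1B, so most of the difference lay in the first shRING1B array. Without that array 39 of the 49 were negative, the median was -0.07 and 2 were lower, and without the second 13 were lower. MAD2L1, a spindle checkpoint protein, was at 9.38 and 9.51 with shGFP and at 8.91 and 9.15 with shRING1B (-0.41 ± 0.11, adjusted p = 0.346). CDCA2, which recruits a phosphatase to chromosomes, the spindle motor KIF15 and the mitotic kinase PBK were lower by similar amounts (-0.33, -0.33 and -0.30). Of 31 replication and G1/S genes, 0 were higher and 0 lower at the threshold, with 24 negative and a median of -0.04. Of the 31, 15 were positive without the first shRING1B array. In bulk RNA fewer cells in a phase and less RNA per cell cannot be told apart.

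Stress and metabolism lists were mostly near the background. ATF4 and amino acid stress genes had 6 of 23 higher and 0 lower, with a median of 0.06. The higher count was 2 without the first shRING1B array, with a median of -0.025, and without the second shGFP array 2 were higher. TRIB3, a pseudokinase induced by ATF4, was at 8.67 and 8.54 with shGFP and at 9.33 and 8.97 with shRING1B (0.55 ± 0.13, adjusted p = 0.346). The stress factor DDIT3 was at 7.34 and 7.04 with shGFP and at 7.49 and 7.61 with shRING1B (0.37 ± 0.12), and STC2 and ATF3 belong to this list too. Of 13 p53 targets, TP53I3 was lower (-0.59 ± 0.19) and 0 were higher. Heat shock and unfolded protein genes had 1 of 12 higher, the small chaperone HSPB8 (0.35 ± 0.09), and 1 lower, HSPA4L (-0.27 ± 0.11). Of 20 hypoxia and glycolysis genes, the vasodilator peptide ADM and VEGFA were higher and LDHA, lactate dehydrogenase A, was lower. ADM was at 8.06 and 8.05 with shGFP and at 8.43 and 8.34 with shRING1B (0.34 ± 0.09, adjusted p = 0.361). Of 11 metallothioneins, the transcribed pseudogene MT1L was higher by 0.64 ± 0.16, although close paralogs make its value uncertain. NRF2 targets (11 genes), cholesterol and fatty acid synthesis genes (24) and oxidative phosphorylation genes (15) had 0 members past the threshold.

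Marker lists of other cell types and of RNA processing were set beside these results. Of 10 leukocyte markers, LCP1 and CD53 were higher and 0 lower, and the mean level of the list was 6.50 and 6.38 with shGFP and 6.59 and 6.58 with shRING1B. LCP1 was at 6.96 and 7.14 with shGFP and at 7.66 and 7.89 with shRING1B (0.72 ± 0.12, 1.65-fold, adjusted p = 0.167). Of 8 endothelial markers, KDR was higher by 0.61 ± 0.26 and the list mean was 5.73 and 5.74 against 5.81 and 5.79. Fibroblast markers (7) and melanocyte markers (8) had 0 members past the threshold. Of 33 ribosomal protein genes, 28 had a negative difference with a median of -0.06, and 2 were lower, RPL35 and RPS16. The part of other cells or of RNA quality in the results was not tested.

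Promoters of the genes named above are shown because they differ in base composition and in the presence of the letters TATAAA. The 5 stretches are the 250 bases before the annotated start, from RefSeq on GRCh38.p14, 5′ to 3′ on the gene's strand. Capitals mark each CG and each TATAAA. The window of CCL20 is chr2:227813592-227813841 on the plus strand, that of CXCL8 chr4:73740319-73740568 on the plus strand and that of PTGS2 chr1:186680424-186680673 on the minus strand. Those of DLL4 and CERS3 are chr15:40929090-40929339 on the plus strand and chr15:100544684-100544933 on the minus strand.
CCL20: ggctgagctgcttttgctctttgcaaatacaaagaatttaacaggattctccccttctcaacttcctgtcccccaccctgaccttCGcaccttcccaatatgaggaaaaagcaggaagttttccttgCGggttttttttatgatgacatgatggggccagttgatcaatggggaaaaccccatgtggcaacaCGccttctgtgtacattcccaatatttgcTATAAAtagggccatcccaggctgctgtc
CXCL8: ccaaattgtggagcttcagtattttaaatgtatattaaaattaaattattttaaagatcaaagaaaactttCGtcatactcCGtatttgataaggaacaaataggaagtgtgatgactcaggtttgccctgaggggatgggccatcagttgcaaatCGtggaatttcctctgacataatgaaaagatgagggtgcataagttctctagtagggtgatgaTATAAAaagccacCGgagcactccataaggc
PTGS2: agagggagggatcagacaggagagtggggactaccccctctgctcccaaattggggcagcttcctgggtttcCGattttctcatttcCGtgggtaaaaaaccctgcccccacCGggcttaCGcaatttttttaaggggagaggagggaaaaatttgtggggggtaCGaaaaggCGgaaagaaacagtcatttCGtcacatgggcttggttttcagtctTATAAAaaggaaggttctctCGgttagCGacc
DLL4: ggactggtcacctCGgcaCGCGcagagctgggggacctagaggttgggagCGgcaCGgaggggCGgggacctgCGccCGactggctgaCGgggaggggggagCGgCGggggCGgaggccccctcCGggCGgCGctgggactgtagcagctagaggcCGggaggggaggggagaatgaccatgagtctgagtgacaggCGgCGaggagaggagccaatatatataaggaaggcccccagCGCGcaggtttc
CERS3: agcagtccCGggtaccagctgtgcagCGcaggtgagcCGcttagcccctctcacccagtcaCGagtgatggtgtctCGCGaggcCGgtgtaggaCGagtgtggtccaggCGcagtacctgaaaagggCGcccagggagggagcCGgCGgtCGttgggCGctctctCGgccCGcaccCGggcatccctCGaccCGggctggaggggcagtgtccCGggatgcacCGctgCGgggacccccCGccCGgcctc
The first 3 genes were higher with shRING1B, hold 3, 4 and 9 CG pairs, and carry TATAAA beginning 29, 31 and 32 bases before the start for CCL20, CXCL8 and PTGS2. DLL4, also higher, holds 20 CG pairs, and CERS3, the lower gene, 24, with no TATAAA in either window. Only these exact letters were searched, and the DLL4 window holds the related letters tatataag close to the start. The absence of TATAAA is therefore not the absence of a TATA box. All 5 are single examples.

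Over the whole comparison, 9707 of 11915 protein-coding genes had a promoter of 300 bases (250 before to 50 after the start) in the RefSeq table. A promoter was counted as CpG-dense at a GC share above 50% and an observed over expected CpG ratio above 0.6. Of all matched promoters 68.6% were dense, of 426 matched promoters of higher genes 54.9%, and of 330 of lower genes 67.9%. TATAAA on the gene's strand, lying 40 to 15 bases before the start, was found in 3.42% of all promoters (332), in 6.57% of those of higher genes (28) and in 3.03% of those of lower genes (10). Higher genes were dimmer, with a median level of 6.57 against 7.54 over all matched genes, and dim genes have fewer dense promoters. The genes were therefore split by level into 3 equal sets, dim, middle and bright. Dense promoters numbered 76 of 190 higher genes in the dim set, and made up 63.5% and 78.2% of them in the middle and bright sets, against 40.8%, 77.1% and 87.9% of all genes. TATAAA near the start was in 6.32%, 7.18% and 5.45% of the higher genes and in 7.01%, 1.95% and 1.30% of all genes, resting on 12, 13 and 3 promoters. The shares thus lay apart in the middle and bright sets and close together in the dim one, and none of this was tested.

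**Figure D4:**
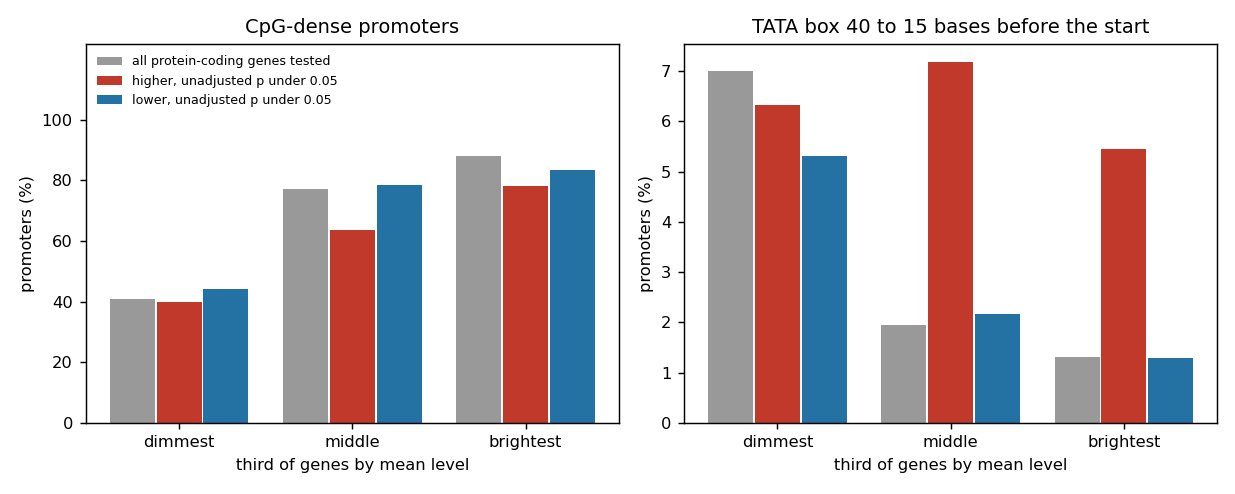
Share of promoters (vertical axes, percent) that were CpG-dense (left) or held a TATA box 40 to 15 bases before the start (right), for all protein-coding genes tested and for genes higher or lower at an unadjusted p under 0.05, in 3 equal sets by mean level. A reader should see that higher genes in the middle set had 63.5% dense promoters against 77.1% of all, and 7.18% with a TATA box against 1.95%. A TATA box here means the exact letters TATAAA.

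Genes holding TATAAA at that distance included, among the higher, EREG, CCN2, ADM, GDF15, IL20, IL7R and ANXA10, and among the lower KRT10, HRNR and FOS. Others among the higher were the keratin-associated KRTAP2-3, KRTAP1-5 and KRTAP10-9 and the epidermal genes PRR9, SPRR2F, SPRR2A and LCE2A. GDF15, IL7R, PRR9, SPRR2A and these keratin-associated genes were chosen after their values were seen. Other motifs were searched on both strands, over all levels together, and none was tested. Their shares differed by fewer percentage points than those of TATAAA. The NF-kB motif, found in few promoters, differed more as a ratio of higher to lower genes. The AP-1 motif TGANTCA was in 7.04% of promoters of higher genes, 4.55% of lower and 5.48% of all. The NF-kB motif, searched as GGGA, any 2 bases and TTCC, was in 1.64%, 0.606% and 1.42%, the cyclic AMP element TGACGTCA in 2.11%, 1.82% and 2.72%, and the E-box CACGTG in 6.81%, 6.67% and 9.10%. A match is a description of letters and names no factor.

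Small RNA loci were outside the naming rule and the following were chosen after their values were seen. A probe set paired with a microRNA gene reads transcripts of its locus, which need not follow the mature strand. MIR3662 had the smallest p of all genes. It was at 4.05 and 3.95 with shGFP and at 3.08 and 3.12 with shRING1B (-0.90 ± 0.08, adjusted p = 0.0598). MIR545 was at 5.90 and 6.0 with shGFP and at 5.04 and 4.78 with shRING1B (-1.04 ± 0.12, adjusted p = 0.0628), and MIR30C2 was at 4.61 and 4.53 with shGFP and at 5.61 and 5.38 with shRING1B (0.92 ± 0.15, adjusted p = 0.167). All 3 had separate groups. These loci are dim, with a median level of 4.48 over 1072 microRNA genes against 7.40 over protein-coding genes, and a median SE of 0.153 against 0.107. Past the unadjusted threshold, 57 of the 1072 were higher (5.32%) and 60 lower (5.60%), beside 4.8% and 3.8% of all genes. The mature strands, from RefSeq on GRCh38.p14, are printed to show that these loci share no seed, with bases 2 to 8 in capitals.
hsa-miR-3662: gAAAAUGAugaguagugacugaug
hsa-miR-545-3p: uCAGCAAAcauuuauugugugc
hsa-miR-545-5p: uCAGUAAAuguuuauuagauga
hsa-miR-30c-2-3p: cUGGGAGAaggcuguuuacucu
hsa-miR-30c-5p: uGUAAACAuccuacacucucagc
The seeds of miR-545-3p and miR-545-5p, CAGCAAA and CAGUAAA, are those of 2 strands of 1 hairpin, at chrX:74287126-74287147 and chrX:74287164-74287185. The strand of miR-3662 lies at chr6:134979355-134979378, and those of miR-30c at chr6:71377003-71377025 and chr6:71376964-71376985, all on the minus strand.

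The response was then set beside those of the other hairpins, which were compared with the same shGFP arrays, so their values are not independent of each other. The genes were chosen for their difference with shRING1B, so a larger size there is no finding. STC1 differed from shGFP by 0.94 with shRING1B, 0.77 with shEZH2 and 0.19 with shBMI1. LIF differed by 0.84, 0.67 and -0.08, HEPHL1 by 0.84, 1.12 and 0.07, and BMP2 by 0.76, 0.79 and 0.03 in the same order. HAS2 was higher with each hairpin, by 0.99, 1.14 and 0.80. CACHD1 differed by 0.70, 0.25 and 0.50, and CERS3 by -0.65, -0.16 and -0.22. KRCC1 differed by -0.68, 0.32 and -0.09, and RIPK3 by -0.42, 0.37 and -0.37. Among signals, CCL20 differed by 1.03, 1.70 and 0.21 and CXCL8 by 0.95, 0.90 and 0.03. For CRCT1 and KLK7, the genes with the largest differences, the order was another. CRCT1 differed by 1.47, -1.32 and -0.80, and KLK7 by 1.46, -0.12 and -0.37. In limma's direct contrasts with shBMI1 and shEZH2, CRCT1 had adjusted p-values of 0.333 and 0.0975. Those of KLK7 were 0.245 and 0.107, so none passed. SCEL, a cornified envelope gene, differed from shGFP by -0.94, -0.49 and -0.84 and so was lower with each hairpin.

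**Figure D5:**
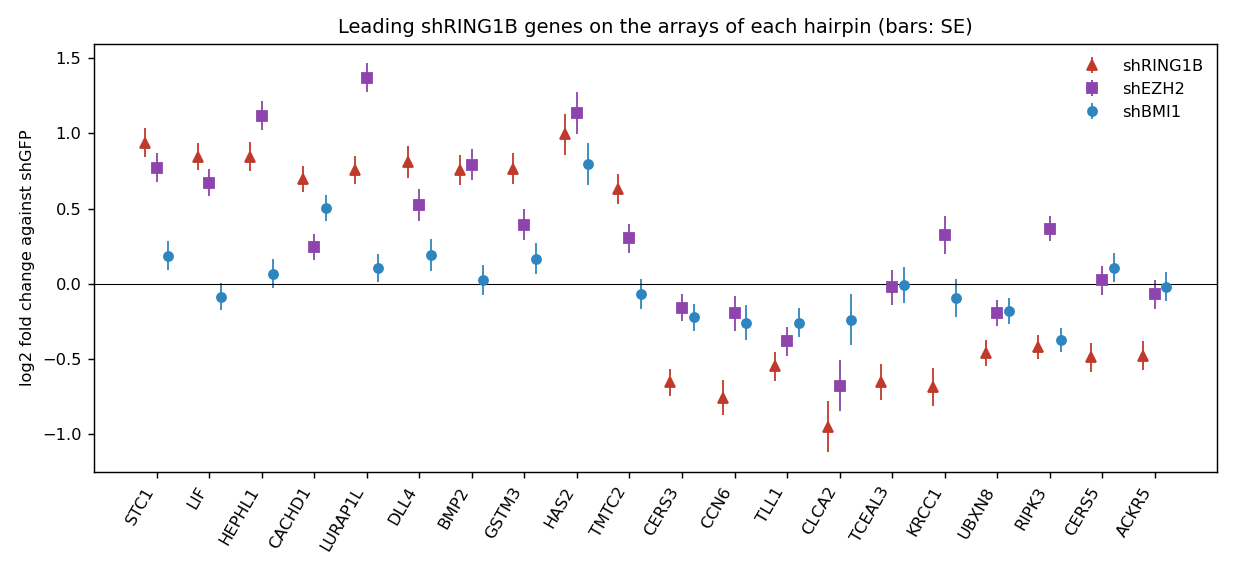
Log2 fold change over the same 2 shGFP arrays (vertical axis, bars are SE of the fit) with shRING1B, shEZH2 and shBMI1, for the 10 higher and 10 lower genes with the smallest p for shRING1B. A reader should see STC1, LIF and BMP2 high with shRING1B and shEZH2 at values near 0 with shBMI1 for LIF and BMP2, and KRCC1 and RIPK3 below 0 with shRING1B and above 0 with shEZH2.

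Direct contrasts between hairpins, which do not use the shGFP means, gave few calls against shBMI1. They share the shRING1B arrays with the choice of the genes and are not independent of it. In limma's test of shRING1B against shBMI1, 2 of 14884 genes passed an adjusted p of 0.05 and were higher with shRING1B (0.0134%), while 0 were lower. At an unadjusted p under 0.05, 775 were higher (5.21%) and 592 lower (3.98%). The 2 genes were LIF (0.93, adjusted p = 0.0439) and the keratin-associated protein KRTAP2-3 (adjusted p = 0.0439). KRTAP2-3 is outside the naming rule and is named because the count is small. STC1 and HEPHL1 were higher by 0.75 and 0.78, each at an adjusted p of 0.102. For the other leading genes no difference between the RING1B and BMI1 hairpins passed, which does not show that the responses were alike.

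Against shEZH2, 33 genes were higher (0.222%) and 53 lower (0.356%) with shRING1B at an adjusted p under 0.05, beside 1223 (8.22%) and 1094 (7.35%) at an unadjusted one. Among the genes named here, LCP1 differed in direction between the hairpins, being -0.51 with shEZH2 over shGFP, and the direct contrast was 1.23 (adjusted p = 0.00808). AXL (0.86, adjusted p = 0.0116), CCN2 (0.77, adjusted p = 0.0402) and LHX1 (0.86) were also higher with shRING1B than with shEZH2. For MT1L the contrast was 2.37 (adjusted p = 0.00389), with the same doubt over its paralogs. The genes lower than with shEZH2 were RIPK3 (-0.79, adjusted p = 0.0109), KRCC1 (-1.01, adjusted p = 0.0171), DSG3 (-1.01), IL18 (-0.73), LURAP1L (-0.61, adjusted p = 0.0339), MSC (-0.83) and S100A8 (-0.84). For STC1 and LIF the contrast was 0.17 in each, at adjusted p-values of 0.46 and 0.406. The titles of the shEZH2 arrays carry another prefix, and an origin of these differences there cannot be told apart from the hairpin.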

How the data were processed

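Total RNA of each sample was labelled with whole-transcript kits and hybridised to an array, per the labels' protocols. The authors deposited log2 levels per probe set after RMA, per the submitters' processing notes, where limma is named too. The sources used here give no versions, probe set library or genome build. RMA gives all arrays 1 distribution, which hides a shift common to most genes, and compresses differences of dim genes. The file holds 53617 probe sets on 8 arrays, of which 16098 were paired with 1 gene symbol, 0 with several and 37519 with none. The unnamed ones did not enter the tests. For 779 genes with several probe sets, the probe set brightest on average over the 8 arrays was taken, which left 14884 genes, 11915 of them protein-coding.

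Group means of the 4 hairpins over all 8 arrays were fitted with limma 3.58.1 in R 4.3.3 (empirical Bayes without trend, two-sided, Benjamini-Hochberg over all genes, threshold 0.05). Errors after ± are standard errors of this fit. With 2 arrays against 2, the smallest p of an exact permutation test is 0.333, so none was used. The number of arrays limits the precision.

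Genes were named by rule: among those whose groups did not overlap, leaving out uncharacterised, small RNA, antisense, pseudogene, olfactory receptor and keratin-associated symbols, the 15 with the smallest p in each direction, the 6 largest in each direction at an unadjusted p under 0.05, and up to 4 members of each gene list. The members, lists and rules were chosen with earlier results of these data known. Promoters were matched by symbol to RefSeq (GRCh38.p14). Alternatives were other sets of arrays, a replicate block, other normalizations, a filter on dim genes, protein-coding genes alone, the mean of probe sets, other variance models, and leaving out each array.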

Additional observations from a re-analysis of the deposited data

How the results depend on the processing

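The count of 0 genes at an adjusted p under 0.05 became 11 without the 30% dimmest genes (10 higher, 1 lower), 9 among protein-coding genes alone (9 higher) and 36 with a trended robust variance (25 higher, 11 lower). The first and second test fewer genes and also estimate the shared variance anew from the genes kept. For none of the 3 was the cause of the added calls tested. Leaving out 1 of the 4 arrays at a time gave 0 to 0 such genes. The other 7 alternatives gave 0, with a lowest adjusted p from 0.0563 to 0.355. Genes higher at an unadjusted p under 0.05 numbered between 545 and 796 and lower ones between 420 and 677. Median centring turned their split, with 47.8% higher against 55.9%. STC1, LIF, HEPHL1, CACHD1, LURAP1L, DLL4, BMP2, GSTM3 and KRTAP2-3 passed an adjusted p of 0.05 under those 3 settings, and HAS2 and CERS3 under 2. Of 487 values of 35 named genes under 14 alternatives, 0 changed sign. This was largely set in advance. The genes were chosen for groups that did not overlap, so leaving out 1 array could not turn a sign. Settings that change only the variance, add the replicate block or drop arrays of other hairpins leave the difference as it was.

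The replicate number as a block gave 0 adjusted calls and 796 higher and 657 lower genes at an unadjusted p under 0.05. The labels name nothing that same-numbered arrays share, so the numbers were not taken as pairs. Correlations of the replicate differences between groups were all positive and lay between 0.000656 and 0.248. A low correlation over all genes does not show that no genes shifted together. The mean of the interferon response genes was higher on the second array with shGFP, shRING1B and shBMI1. Of 714 medians over 51 lists, 659 moved by less than the spread between replicates. Settings that changed only the variance model, added the replicate block or dropped arrays of other hairpins returned the main medians. Those entries are counted among the 659, so that number overstates how stable the medians were. With 2 arrays a group and a median SE of 0.111, small changes of single genes cannot be told from noise.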

Other observations

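Of the 37519 probe sets without a gene symbol, 1189 were higher with shRING1B (3.17%) and 1701 lower (4.53%) at an unadjusted p under 0.05. In a fit over all 53617 probe sets, 0 passed an adjusted p of 0.05 in limma's test, and the lowest was 0.248.

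The microRNA gene MIR34A, a known p53 target chosen after its value was seen, was at 4.33 and 4.75 with shGFP and at 3.48 and 4.02 with shRING1B (-0.80 ± 0.19, adjusted p = 0.346). Its groups did not overlap. The replicate arrays of shRING1B correlated at 0.9945 over the named genes, and the arrays of shGFP at 0.9950. Between the hairpins the correlations were 0.9931 to 0.9944, so the arrays of the comparison were nearly as alike between groups as within them.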
